A study of Mus musculus with 15 samples.

Results

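Latrophilins and their FLRT ligands make up 6 of the 38924 genes counted in this murine dataset: the receptors Adgrl1, Adgrl2 and Adgrl3 and the ligands Flrt1, Flrt2 and Flrt3. The set was chosen from measured values in these same libraries, because Adgrl3 was high in splenic DCs and Flrt3 in LN DCs. The difference between organs for those 2 genes, and that between monocytes and splenic DCs for Adgrl3, are therefore described here without a test. RNA was measured in 15 libraries, 3 for each of 5 sorted MP (mononuclear phagocyte) subtypes. The donors were naïve C57BL/6 mice, all female and, by the sample descriptions, 6 to 8 weeks old. The spleen gave CD8+ DCs, CD4+ DCs and Ly6C+ monocytes, and the lung-draining lymph nodes (LNs) gave CD103+ DCs and CD11b+ DCs. CD8+ and CD103+ DCs belong to the DC1 lineage, and CD4+ and CD11b+ DCs to the DC2 lineage. Every library pooled cells from 5 mice, and no group carried a transgene, a deletion or a treatment. Magnetic beads against CD11c (DCs) or CD11b (monocytes) preceded the sort. LNs and spleens came from different cohorts, and the sort gate for LN DCs took cells with high surface MHCII, so organ, cohort and gate cannot be told apart.

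Latrophilins are adhesion G protein-coupled receptors, named after their binding of the black widow spider toxin latrotoxin and best known at synapses. Their long extracellular part binds membrane proteins on neighbouring cells, among them the fibronectin leucine-rich transmembrane (FLRT) proteins and the teneurins, and their tail binds scaffold proteins inside the cell. FLRT proteins carry leucine-rich repeats and a fibronectin domain outside the cell, and also bind Unc5 receptors and FGF receptors.

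Libraries held 4531243 to 10233914 counts on genes, with no unique molecular identifiers, so intervals and floors given below cover counting error only. Levels are CPM, counts scaled to a common library total with TMM factors, or TPM where genes are compared with each other, since TPM also divides by the length of the exons. The sorted subtypes were checked against their markers. The 5 DC1 markers summed to 3320 to 5105 CPM in splenic CD8+ DCs and 774 to 1080 CPM in LN CD103+ DCs, against 130 to 439 CPM in the DC2 libraries. The 5 DC2 markers summed to 1422 to 2448 CPM in splenic CD4+ DCs and 798 to 881 CPM in LN CD11b+ DCs, against 53.2 to 174 CPM in the DC1 libraries. Monocytes had 478 to 593 CPM of the first list, mainly Irf8, and 2313 to 2625 CPM of the second, mainly Sirpa and Itgam. Sirpa also led the second list in the DC2 libraries. Some markers overlapped between lineages. Clec10a had 2.16 to 7.85 CPM in splenic CD4+ and 1.83 to 7.64 CPM in splenic CD8+ DCs. Batf3 had 79.5 to 91.7 CPM in LN CD103+ and 65.8 to 85.2 CPM in LN CD11b+ DCs. Irf4 had 29.8 to 48.2 CPM in LN CD103+ and 35.3 to 60.4 CPM in splenic CD4+ DCs. The 5 monocyte markers summed to 4544 to 4945 CPM in the monocyte libraries and at most 610 CPM elsewhere. Markers of migratory DCs, such as the chemokine receptor Ccr7, summed to 6929 to 15742 CPM in LN DCs and 170 to 410 CPM in splenic DCs. All 4 T cell markers had counts in LN DCs, with sums of 51.7 to 105 CPM against 0.809 to 4.78 CPM in splenic DCs. The B cell markers summed to 12.5 to 150 CPM in LN CD103+ DCs and 7.47 to 38.5 CPM in LN CD11b+ DCs, against 16 to 32.9 CPM in splenic DCs.

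Adgrl3 (ENSMUSG00000037605, chr5:81020138-81825133 on the plus strand of mm10) was the latrophilin of splenic DCs. Its promoter is shown beside that of Flrt3 because these 2 genes carry the pattern. Both stretches were read from RefSeq promoter windows on GRCm38.p6 and run 5′ to 3′ up to an annotated start. RefSeq lists 3 starts for Adgrl3, and the 250 bases before the first and the second lie inside exons of the counted annotation. The third is therefore shown, without its 3 exonic bases, at chr5:81021346-81021592 on the plus strand. The Flrt3 stretch lies at chr2:140671477-140671726 on the minus strand. Capitals mark the GC box, the letters GGGCGG on either strand.
Adgrl3 promoter: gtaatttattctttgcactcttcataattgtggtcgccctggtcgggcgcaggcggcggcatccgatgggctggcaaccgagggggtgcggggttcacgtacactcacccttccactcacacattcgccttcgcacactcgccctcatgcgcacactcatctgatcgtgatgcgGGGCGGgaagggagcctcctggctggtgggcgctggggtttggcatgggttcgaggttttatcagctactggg
Flrt3 promoter: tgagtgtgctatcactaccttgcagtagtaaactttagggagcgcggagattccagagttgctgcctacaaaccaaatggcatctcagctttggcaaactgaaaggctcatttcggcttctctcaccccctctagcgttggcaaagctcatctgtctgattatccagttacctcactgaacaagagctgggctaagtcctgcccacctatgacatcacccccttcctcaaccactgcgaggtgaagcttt

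The 3 Adgrl3 windows of 250 bases held 36, 18 and 18 CpG pairs, and the third had 60.0% GC. The Flrt3 window held 5 CpG pairs and 50% GC, beside medians of 6 pairs and 52.4% over the 32851 RefSeq promoters. Each Adgrl3 window had at least 1 GC box, as did 32.7% of all promoters, and the Flrt3 window had none. The first and second Adgrl3 windows overlap, at chr5:81020321-81020570 and chr5:81020502-81020751. A GC box and any CpG pairs in the shared bases are therefore counted in both. The second Adgrl3 window also held a TATA box (TATAAA on either strand), as did 12.4% of all promoters. Neither gene had the AP-1 letters TGANTCA (6.75% of promoters), the PU.1 letters GAGGAAGT (2.44%), the CRE letters TGACGTCA (1.55%) or the NF-kB consensus (3.90%) on either strand. These matches describe letters in 1 window and are not evidence of binding. Of the other members, RefSeq promoters were listed for Adgrl1, Adgrl2 and Flrt2.

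Adgrl3 was highest in splenic CD4+ DCs, with 160, 166 and 194 CPM in the 3 libraries (173 ± 18.1 CPM, SD, n = 3). Splenic CD8+ DCs had 30.6, 40.6 and 37.9 CPM (36.3 ± 5.18, n = 3). The ranges did not overlap, and every CD4+ library lay above every CD8+ library. LN CD11b+ DCs had 8.59, 8.49 and 5.30 CPM (7.46 ± 1.88, n = 3). Splenic Ly6C+ monocytes had 3.73, 5.73 and 5.13 CPM (4.86 ± 1.02, n = 3). These 2 groups overlapped each other and lay below all splenic DC libraries. LN CD103+ DCs were lowest, with 2 counts (0.279 CPM) in replicate 1 and 0 in replicates 2 and 3. The B cell markers varied widely between the libraries of this subtype, and their part in these 2 counts was not tested. The group total of 2 lay under the floor of 3 counts, which is 0.138 CPM over the 3 libraries. In bulk RNA, fewer cells with a transcript and less of it per cell cannot be told apart.

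Of the differences that chose the gene, the pooled Adgrl3 level in splenic CD4+ DCs was 22-fold that in LN CD11b+ DCs, with an exact 95% interval of 18.8 to 25.9. Splenic CD8+ DCs exceeded LN CD103+ DCs 394-fold, and the 2 counts behind the lower level give this ratio an interval of 109 to 3258. Against monocytes, splenic CD4+ DCs were 33.8-fold higher (28.1 to 41.0) and splenic CD8+ DCs 7.11-fold higher (5.86 to 8.70). Among all genes with a signal, Adgrl3 ranked 3911 of 18074 by mean TPM in splenic CD4+ DCs, 9098 of 18561 in splenic CD8+ DCs and 13795 of 19818 in LN CD11b+ DCs.

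**Figure D1:**
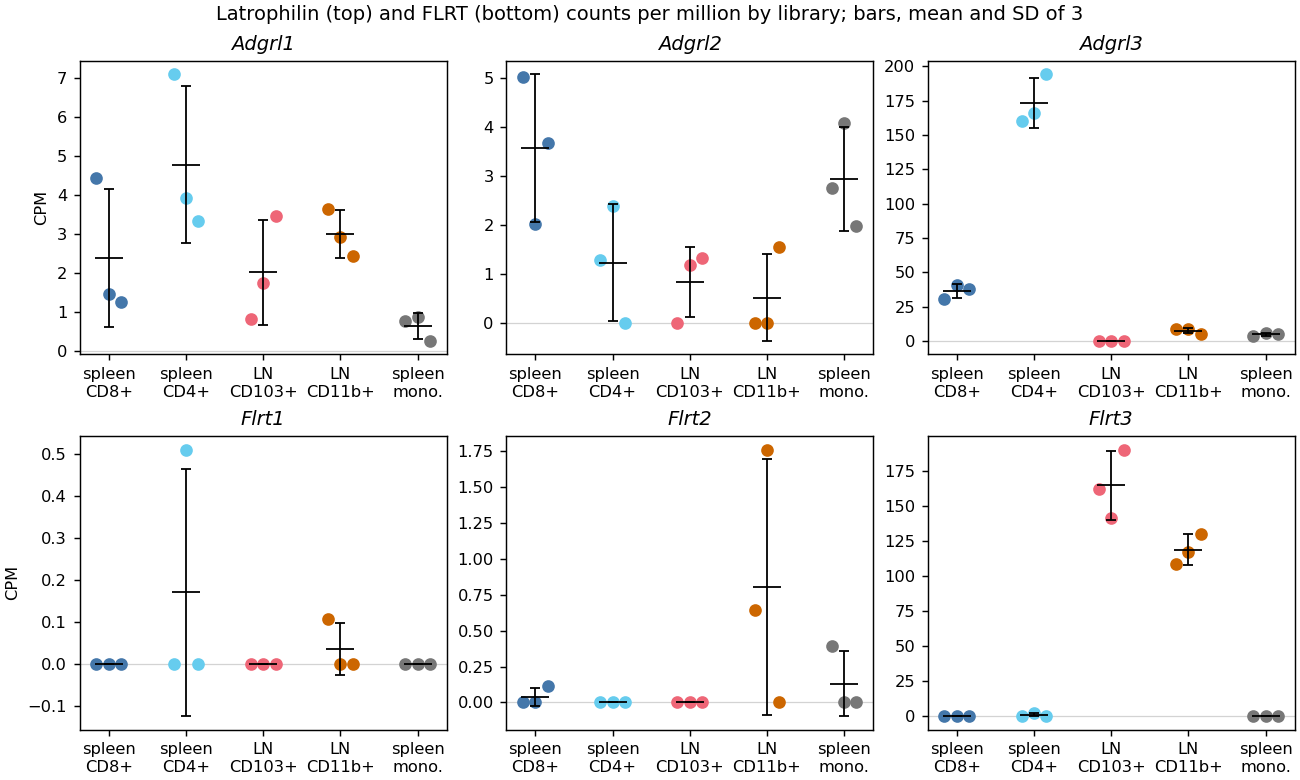
CPM of each member (y axis, linear, with its own scale per panel) in the 15 libraries, by subtype (x axis; mono., monocytes). Points are libraries and black bars give the mean and SD of 3. Adgrl3 reaches 194 CPM in splenic CD4+ DCs and Flrt3 reaches 190 CPM in LN CD103+ DCs, while no library of the other 4 members passes 7.08 CPM.

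The lineage difference of Adgrl3 within each organ was not used to choose it, and the edgeR quasi-likelihood fit was used to test it. Of the 6 members 4 passed the filter on low counts, Flrt3 through the LN DCs where it was high. Adgrl3 was above 1 CPM in every library except those of LN CD103+ DCs. In the spleen, 1 of the 4 members tested passed the adjusted threshold of 0.05, beside 27.4% of all 14456 genes tested. It was Adgrl3, which was lower in CD8+ than in CD4+ DCs by a log2 fold change of -2.25 (SE 0.25, adjusted p = 2.19e-06). In the LN, 1 of 4 members tested passed, beside 12.9% of all genes. Adgrl3 was again the gene, lower in CD103+ than in CD11b+ DCs with a log2 fold change of -6.12 (SE 0.52, adjusted p = 2.84e-07). In pooled counts the LN ratio was 85.3, with an exact 95% interval of 23.2 to 710, because it rests on 2 counts in LN CD103+ DCs. DC2 cells thus had the higher Adgrl3 level in both organs, in 3 of 3 libraries each. The sum of the 4 macrophage markers, all with counts in each DC subtype, moved the same way. They summed to 582 to 904 CPM in splenic CD4+ against 27.5 to 61.1 CPM in splenic CD8+ DCs, and to 154 to 241 CPM in LN CD11b+ against 7.81 to 14.2 CPM in LN CD103+ DCs. Most of each DC2 sum was Adgre1. C1qa overlapped in the spleen, with 4.45 to 9.79 CPM in CD8+ and 7.15 to 29.1 CPM in CD4+ DCs. The part of the macrophage markers in the Adgrl3 difference was not tested.

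The DC1 minus DC2 difference of Adgrl3 was itself larger in the LN than in the spleen. The interaction of lineage and organ was -3.87 on the log2 scale (SE 0.67, adjusted p = 8.17e-04 by edgeR). It was called for 1 of the 3 members that could be tested, beside 11.2% of all genes. On the scale of log2(TPM + 1), where low levels are compressed, limma gave an interaction of 0.95 with an adjusted p of 0.0518. The sign thus depended on the scale. Without LN CD103+ replicate 1 that subtype has no Adgrl3 count, and the interaction is no longer defined.

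Flrt3 (ENSMUSG00000051379, chr2:140650914-140671469 on the minus strand of mm10) was the FLRT ligand of LN DCs. LN CD103+ DCs had 162, 141 and 190 CPM (164 ± 24.7, SD, n = 3). LN CD11b+ DCs had 108, 117 and 130 CPM (118 ± 10.7, n = 3). All 6 LN libraries lay far above the spleen. In splenic CD4+ DCs replicate 2 had 10 counts (1.70 CPM), and replicates 1 and 3 had 0. Splenic CD8+ DCs and monocytes had 0 counts in all 3 libraries each, which allows up to 0.122 and 0.130 CPM. Flrt3 ranked 1738 of 19612 genes with a signal in LN CD103+ DCs and 2306 of 19818 in LN CD11b+ DCs.

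As a description of the contrast that chose it, Flrt3 in LN CD103+ DCs was at least 1319-fold higher than in splenic CD8+ DCs, with the floor of 3 counts over the group standing in for 0. In LN CD11b+ DCs it was 228-fold higher than in splenic CD4+ DCs (exact 95% interval 124 to 475). The T cell markers and the migratory DC markers given above move with Flrt3 between the organs. Fibroblast and reticular stroma markers, 7 of 7 with counts, summed to 2.93 to 9.52 CPM in LN DCs and 0 to 2.51 CPM in splenic DCs. The endothelial list summed to 33.3 to 53.4 CPM in LN CD11b+ DCs and 2.65 to 4.56 CPM in LN CD103+ DCs, in the former mainly Kdr, and Emcn was at 0 in both. Monocytes, with no Flrt3 count, had 4.32 to 7.57 CPM of the stroma list, nearly all of it Pdgfrb (4.32 to 7.38 CPM). Col1a1, Col3a1, Pdgfra, Dcn and Lum had no count in monocytes, whereas each had counts in both LN DC subtypes. Epithelial markers summed to 3.74 to 7.12 CPM in LN CD103+ DCs, 5 of 5 with counts, and 0 to 0.293 CPM in LN CD11b+ DCs. In splenic DCs they summed to 0 to 1.26 CPM. The part of these cell types in the Flrt3 level was not tested.

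Between the LN subtypes, the 3 CD103+ libraries all lay above the 3 CD11b+ libraries for Flrt3. The log2 fold change was 0.47 (SE 0.36, adjusted p = 0.467 by edgeR), and 2 SE either side spans -0.25 to 1.20. A difference between LN CD103+ and CD11b+ DCs was thus not detectable by this fit, whose SE draws on the spread in all subtypes and not these libraries alone. In the spleen, CD8+ minus CD4+ DCs gave an adjusted p of 0.0527, which rests on the 10 counts of splenic CD4+ replicate 2. Since splenic CD8+ DCs have no count, no interaction was computed for Flrt3.

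**Figure D2:**
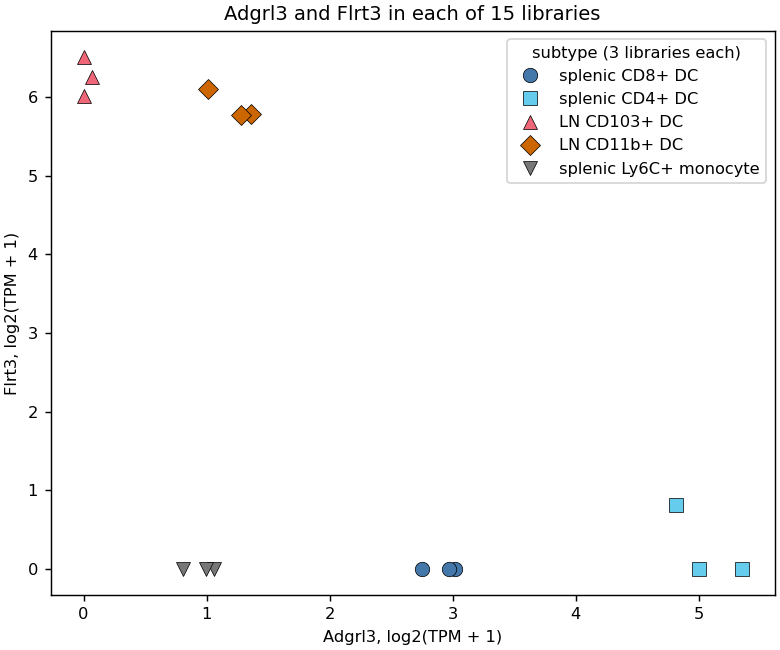
Adgrl3 (x axis) against Flrt3 (y axis), both as log2(TPM + 1), in each of the 15 libraries, with 1 symbol per subtype. The 6 LN DC libraries hold Flrt3 at 53.7 TPM or more with Adgrl3 at 1.57 TPM or less, and the 6 splenic DC libraries hold Adgrl3 at 5.73 TPM or more with Flrt3 at 0.762 TPM or less.

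Per length, the receptor and the ligand could be set side by side in each subtype. Adgrl3 stood at 32.7 ± 6.5 TPM (n = 3) in splenic CD4+ DCs and Flrt3 at 76.5 ± 13.3 TPM in LN CD103+ DCs. Summed over the 3 latrophilins, splenic CD4+ DCs had 28.7 to 40.9 TPM, splenic CD8+ DCs 8.08 to 8.5 TPM and LN CD11b+ DCs 2.19 to 2.60 TPM. Monocytes had 1.67 to 2.56 TPM and LN CD103+ DCs 0.268 to 1.30 TPM. LN CD11b+ DCs were the subtype where both partners had counts in every library, with Adgrl3 at 1.34 ± 0.287 TPM and Flrt3 at 58.6 ± 8.14 TPM. Monocytes had Adgrl3 at 0.942 ± 0.171 TPM and no Flrt3 count.

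The makeup of the latrophilin level also differed. Adgrl3 made up 92.5% to 97.4% of the summed latrophilin TPM in splenic CD4+ DCs and 67.4% to 88.1% in splenic CD8+ DCs. In LN CD11b+ DCs its share was 46.1% to 65.2%. In LN CD103+ DCs Adgrl1 led instead, with 59.5% to 82.3% of a sum that was itself low. Gm10644, which overlaps Adgrl1 on the opposite strand, had counts equal to 88.1% of those of Adgrl1 there, and reads of the 2 genes cannot be told apart in the shared bases. In monocytes Adgrl3 (40.1% to 59.3%) and Adgrl2 (36% to 47.7%) had overlapping shares. Of the summed FLRT level, Flrt3 took at least 99.1% in each LN library.

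Adgrl1 (ENSMUSG00000013033, chr8:83900105-83941954, plus strand), the founding latrophilin, was low in every subtype. Splenic CD4+ DCs had 7.08, 3.92 and 3.33 CPM and splenic CD8+ DCs 4.42, 1.48 and 1.26 CPM. LN CD11b+ DCs had 3.65, 2.93 and 2.43 CPM, LN CD103+ DCs 0.836, 1.75 and 3.47 CPM, and monocytes 0.786, 0.874 and 0.263 CPM. The 4 DC subtypes overlapped one another, and the monocytes overlapped LN CD103+ DCs but lay below the other 3 DC subtypes. No comparison between DC subtypes passed the threshold, with adjusted p by edgeR between 0.222 and 0.757.

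Monocytes had less Adgrl1 than splenic CD4+ DCs, by a log2 fold change of -2.87 (SE 0.67, adjusted p = 0.00184 by edgeR). Against splenic CD8+ DCs the log2 fold change was -1.87 (SE 0.68, adjusted p = 0.0328). The second call was lost without splenic CD8+ replicate 1 (adjusted p = 0.255), monocyte replicate 1 (0.0597) or monocyte replicate 3 (0.134), with limma on log2(TPM + 1) (0.169), and with the counts of the overlapping Gm10644 subtracted (0.214). Adgrl1 was the 1 call among 2 members tested against splenic CD8+ DCs, beside 42.1% of all genes. Against splenic CD4+ DCs 2 of 3 members tested were called, beside 48.0% of all genes. The other was Flrt3, whose adjusted p of 0.0372 rests on the 10 counts of splenic CD4+ replicate 2. Without that library both subtypes are at 0. Monocytes and DCs also differed in the beads used, and only the monocyte libraries were counted as 2 runs each. The part of beads and runs in the monocyte differences was not tested, and Adgrl1 levels by run are given at the end.

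Adgrl2 (ENSMUSG00000028184, chr3:148815586-148989316, minus strand), also a latrophilin, had its highest levels in splenic CD8+ DCs, with 5.02, 2.02 and 3.66 CPM. Monocytes followed with 2.75, 4.08 and 1.97 CPM, and the ranges of these 2 subtypes overlapped. Splenic CD4+ DCs had 1.29, 2.38 and 0 CPM, LN CD103+ DCs 0, 1.17 and 1.32 CPM, and LN CD11b+ DCs 0, 0 and 1.54 CPM. Neighbours in this order all overlapped. Every splenic CD8+ library lay above every LN CD103+ library, with a log2 fold change of -2.09 for LN minus spleen (SE 1.06), but the adjusted p by edgeR was 0.117. That comparison was called without a filter on low counts (adjusted p = 0.0128), with limma on log2(TPM + 1) (0.0277) and in a fit of only these 2 subtypes (0.0352).

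For the organ comparisons, Adgrl1 and Adgrl2 were the members left to test. LN CD103+ against splenic CD8+ DCs gave 0 calls of 2 by edgeR, where 45.6% of all genes were called, and no unadjusted p under 0.05. LN CD11b+ against splenic CD4+ DCs gave 0 calls of 2, where 33.1% were called, and again no unadjusted p under 0.05. DESeq2 also called 0 in both. For Adgrl1, 2 SE either side of the LN minus spleen difference spans -1.48 to 0.96 in DC1 cells and -1.83 to 0.51 in DC2 cells. The fit called neither difference and leaves room for differences within these bounds.

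**Figure D3:**
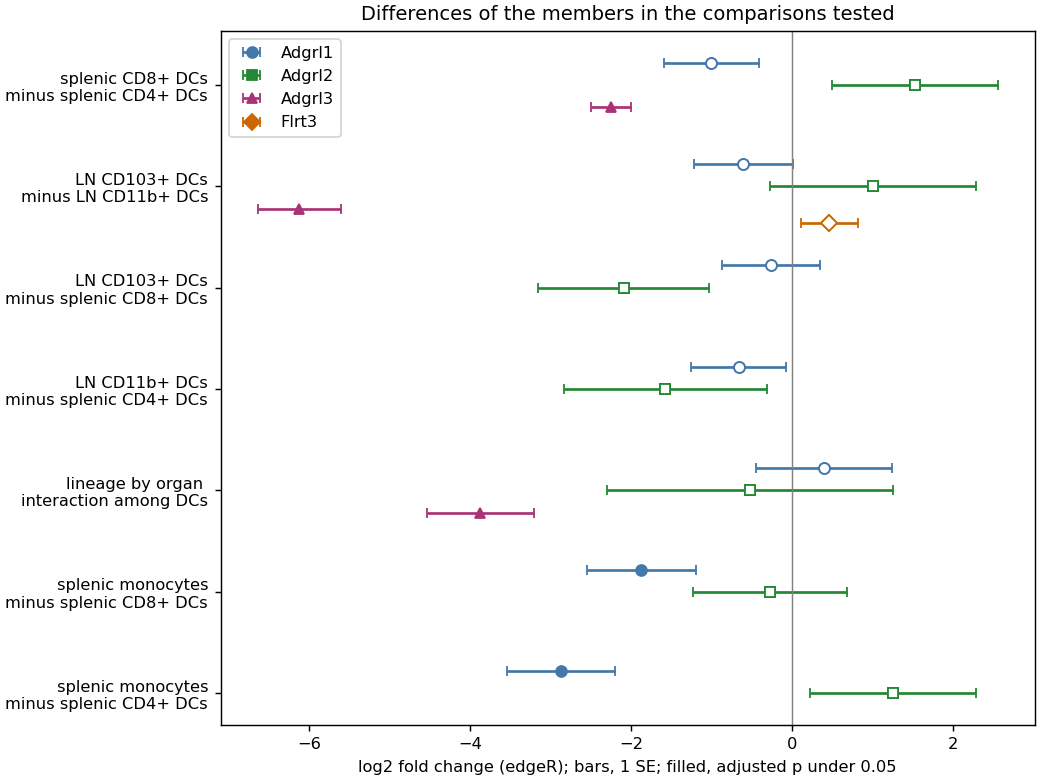
Log2 fold change by edgeR (x axis) with 1 SE for each member in each comparison tested (y axis). Filled symbols have an adjusted p under 0.05, and Flrt3 is left out where a subtype had no count. Adgrl3 lies at -2.25 in the spleen and -6.12 in the LN, and Adgrl1 at -1.87 and -2.87 in the monocyte comparisons.

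Flrt1 (ENSMUSG00000047787, chr19:7092014-7105729, minus strand) and Flrt2 (ENSMUSG00000047414, chr12:95692226-95785215, plus strand) did not pass the filter of more than 1 CPM in at least 3 libraries. Flrt1 had 3 counts in splenic CD4+ replicate 2, 1 count in LN CD11b+ replicate 1 and 0 in the other 13 libraries. Flrt2, which is widely made by mesenchymal cells, had 6 and 12 counts in LN CD11b+ replicates 1 and 2. It had 2 in monocyte replicate 1, 1 in splenic CD8+ replicate 3 and 0 elsewhere. Neither paralog was therefore detected in LN CD103+ DCs, where the 3 libraries together allow up to 0.138 CPM.

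Some reads could belong to neighbours, since the authors counted without strand and gave a read to each gene it overlapped. Gm16054, on the strand opposite Adgrl3, shares 1130 bases (8.5%) of its exons and had counts equal to 7.77% and 7.92% of those of Adgrl3 in splenic CD8+ and CD4+ DCs. ENSMUSG00000079021, on the same strand as Flrt3, lies fully within its exons over 737 bases and had 49 to 70 counts in each LN library and 0 in the spleen. Subtracting all counts of these genes left Adgrl3 at a log2 fold change of -2.25 in the spleen and -6.08 in the LN, and Flrt3 at 0.49 in the LN. Gm10644, opposite Adgrl1, shares 1107 bases (12.9%) and had up to 18 counts in a library. Its counts equalled 27.1% of those of Adgrl1 in splenic CD8+, 20.4% in splenic CD4+, 88.1% in LN CD103+ and 24.6% in LN CD11b+ DCs, and it had none in monocytes. Subtracting its counts took the Adgrl1 difference between monocytes and splenic CD8+ DCs to -1.43 (adjusted p = 0.214 by edgeR).

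Flrt1 and Flrt3 each lie inside a larger gene on the opposite strand with no shared exon base. Macrod2, which encloses Flrt3, had 1 to 15 counts in every library, and LN and splenic DC libraries overlapped. Macrod1, which encloses Flrt1, had 1 to 59 counts.

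Other binding and signalling partners were listed by role, 32 genes in all, of which 18 passed the filter and 7 had no count in any library. Of these 18, 7 were called in splenic CD8+ against CD4+ DCs (5 higher, 2 lower) and 3 in LN CD103+ against CD11b+ DCs (1 higher, 2 lower), where the shares of all genes were 27.4% and 12.9%. LN CD103+ against splenic CD8+ DCs gave 8 (5 higher, 3 lower) and LN CD11b+ against splenic CD4+ DCs 6 (5 higher, 1 lower), beside 45.6% and 33.1%. Monocytes differed from splenic CD8+ DCs in 7 (3 higher, 4 lower) and from splenic CD4+ DCs in 9 (4 higher, 5 lower), beside 42.1% and 48.0%. The median log2 fold change of the 18 was 0.37, -0.06, 0.37, 0.84, 0.03 and -0.07 in these comparisons, and that of all genes lay between -0.04 and 0.05.

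Among the latrophilin ligands other than FLRTs, 2 of 8 passed the filter. The teneurin Tenm4 had 3.22, 2.73 and 2.49 CPM in splenic CD4+ DCs and 0.955, 0.539 and 0.343 CPM in splenic CD8+ DCs. Tenm4 passed the filter through splenic CD4+ DCs, where it was highest, so its test against them is not independent of the filter. It was lower in the CD8+ DCs (log2 fold change -2.17, SE 0.73, adjusted p = 0.0366 by edgeR), the same direction as Adgrl3. That call was lost with no filter, with limma and without splenic CD8+ replicate 2 or 3 or splenic CD4+ replicate 1 or 2. Monocytes had no Tenm4 count, so splenic CD4+ DCs were at least 21.8-fold higher. Tenm1, Tenm2, Nrxn3 and Cntn6 had no count.

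Among the FLRT receptors and cofactors, 5 of 9 passed. Fgfr3, an FGF receptor, was higher in LN than in splenic DCs, as Flrt3 was. It had 18.8, 22.3 and 13.4 CPM in LN CD103+ and 36.4, 44.8 and 17.4 CPM in LN CD11b+ DCs, and at most 5.28 CPM in a splenic DC library. Its log2 fold change was 4.29 in DC1 cells (SE 0.60, adjusted p = 1.05e-05) and 3.45 in DC2 cells (SE 0.54, adjusted p = 6.16e-05), both by edgeR. Fgfr1, the FGF receptor best known to bind FLRT proteins, had mean levels of 13 to 55.3 CPM in the 4 DC subtypes and 0.336 ± 0.300 CPM in monocytes. Splenic CD8+ DCs exceeded monocytes 93.0-fold (exact 95% interval 48.8 to 204, adjusted p = 1.49e-07 by edgeR). Fgfr2 had 14 counts in splenic CD8+ DCs and 1 in splenic CD4+ DCs, a ratio of 11.2 (1.71 to 474, adjusted p = 0.0418 by edgeR). The call was lost with DESeq2, limma, no filter, filterByExpr or the compared subtypes alone. It was also lost without any 1 splenic CD8+ or monocyte library or splenic CD4+ replicate 1 or 2. Of the Unc5 guidance receptors Unc5a passed the filter, with a mean of 0.481 to 1.64 CPM, Unc5d had no count, and Unc5b and Unc5c stayed below the filter.

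Among the G protein alpha subunits and arrestins, 10 of 11 passed, and Gnas and Gnai2 had the highest CPM. Arrb1, an arrestin that binds activated receptors, was higher in splenic CD8+ than in CD4+ DCs (39.2, 59.3 and 73.7 against 20.1, 20.3 and 28.3 CPM, adjusted p = 3.13e-04 by edgeR). In the LN the direction was the opposite, with 15.3, 11.5 and 12.6 CPM in CD103+ and 25.1, 23.4 and 19 CPM in CD11b+ DCs (adjusted p = 0.0367). The LN call was lost with limma and without LN CD103+ replicate 2 or 3, LN CD11b+ replicate 1 or 2 or monocyte replicate 1. Monocytes had the most, 165 ± 12.7 CPM (n = 3), with a log2 fold change of 2.85 over splenic CD4+ DCs (SE 0.24, adjusted p = 2.49e-08). Gnao1, an alpha subunit abundant in neurons, had 2.65, 3.74 and 4.30 CPM in LN CD103+ DCs and at most 0.430 CPM in any other library. It passed the filter only through LN CD103+ DCs, and without any 1 of those 3 libraries it was not called. Its LN ratio of CD103+ to CD11b+ DCs was 12.2 (exact 95% interval 5.35 to 34.2).

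The widely expressed subunits moved less. Gna13 was higher in splenic CD8+ than in CD4+ DCs (log2 fold change 0.86, SE 0.17), in LN CD11b+ than in splenic CD4+ DCs (0.72, SE 0.17) and in monocytes than in splenic CD4+ DCs (1.03, SE 0.17). Gna12 was higher in LN CD11b+ than in splenic CD4+ DCs (0.96, SE 0.22). Gnaq was lower in the LN in both lineages (-1.13, SE 0.23, and -0.72, SE 0.23), where the second call was lost without splenic CD4+ replicate 1 or LN CD11b+ replicate 1 or 2 and in the fit of only those subtypes, as was that of Gna13 in the latter fit. Gnai2 was higher in monocytes than in splenic CD8+ DCs (0.71, SE 0.20) and CD4+ DCs (1.26, SE 0.20), and all of these adjusted p by edgeR lay between 4.93e-05 and 0.0237. Of the scaffolds that bind the latrophilin tail, Dlg4 passed the filter, at means of 0.0831 to 2.32 CPM, and Shank1 and Shank3 stayed below it.

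**Figure D4:**
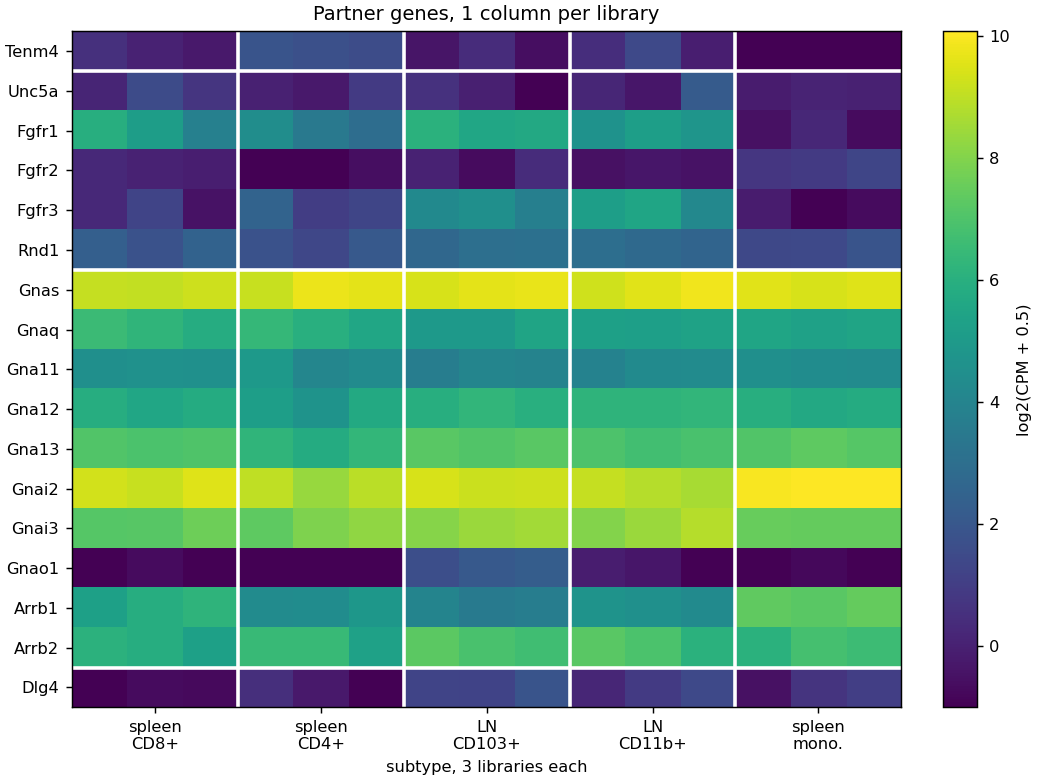
Log2(CPM + 0.5) of 17 of the 18 partner genes past the filter (rows, grouped by white lines into a ligand, FLRT receptors and cofactors, G proteins with arrestins, and a scaffold) in the 15 libraries (columns, grouped by subtype). Fgfr3 is brighter in the 6 LN libraries, at 13.4 to 44.8 CPM, and Arrb1 in the monocytes, at 152 to 177 CPM.

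Within its receptor class, Adgrl3 ranked sixth by mean TPM over the 15 libraries among 30 adhesion G protein-coupled receptors (8.31 TPM). The 5 above it were Adgre5 (361 TPM), Adgre1 (190 TPM), Adgre4 (120 TPM), Adgrg5 (48.4 TPM) and Adgrg6 (13.2 TPM). Adgre5 is the leukocyte receptor CD97 and Adgre1 is the macrophage antigen F4/80. In splenic CD8+ and CD4+ DCs Adgrl3 ranked 5 of 30, at 6.56 ± 0.734 and 32.7 ± 6.5 TPM. In LN CD103+ DCs it ranked 16, while Adgrg6 ranked 2 there, at 19.8 ± 7.07 TPM. Adgrl4, which is related to the latrophilins by sequence and marks endothelium, had no count in the 12 DC libraries and a mean of 0.435 ± 0.491 TPM in monocytes.

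The genes most like Adgrl3 and Flrt3 in pattern were found by the root mean square difference of log2 CPM, each gene centred on its own mean over the 15 libraries, among 10144 genes. For Adgrl3 they were Ddr1, a collagen receptor kinase (1.13), Stra6l (1.14), Ndst1, an enzyme of heparan sulfate synthesis (1.30), Rgs18, a regulator of G protein signalling (1.30), and Slc14a1, a urea transporter (1.30), beside a median difference of 3.08. Their mean CPM in splenic CD4+ DCs was 132, 94.5, 279, 188 and 41.5, and in LN CD103+ DCs 0.954, 1.39, 2.08, 2.60 and 0.854. All 5 had their highest mean in splenic CD4+ DCs and their lowest in LN CD103+ DCs, as Adgrl3 did. Ddr1, Stra6l and Slc14a1 also kept its order of means in between. Ndst1 and Rgs18 did not, with 80.8 and 55.1 CPM in monocytes and 30.6 and 16.6 CPM in LN CD11b+ DCs.

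For Flrt3 the nearest were Cdh2, which encodes N-cadherin (0.65), Ccl17, a ligand of the chemokine receptor CCR4 (0.94), Il2ra, the alpha chain of the IL-2 receptor (0.96), Itgb8, an integrin beta chain (1.08), and Fah, an enzyme of tyrosine breakdown (1.13), beside a median of 4.38. In LN CD103+ DCs they had means of 94.3, 129, 85.9, 346 and 72.0 CPM, and in LN CD11b+ DCs 56.0, 105, 181, 59.0 and 42.9 CPM. Means in the 3 splenic subtypes were at most 0.687 CPM. Cdh2 was closest, with 0 counts in splenic CD8+ DCs and monocytes, as for Flrt3. These likenesses are descriptions over 15 libraries that share their subtypes.

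**Figure D5:**
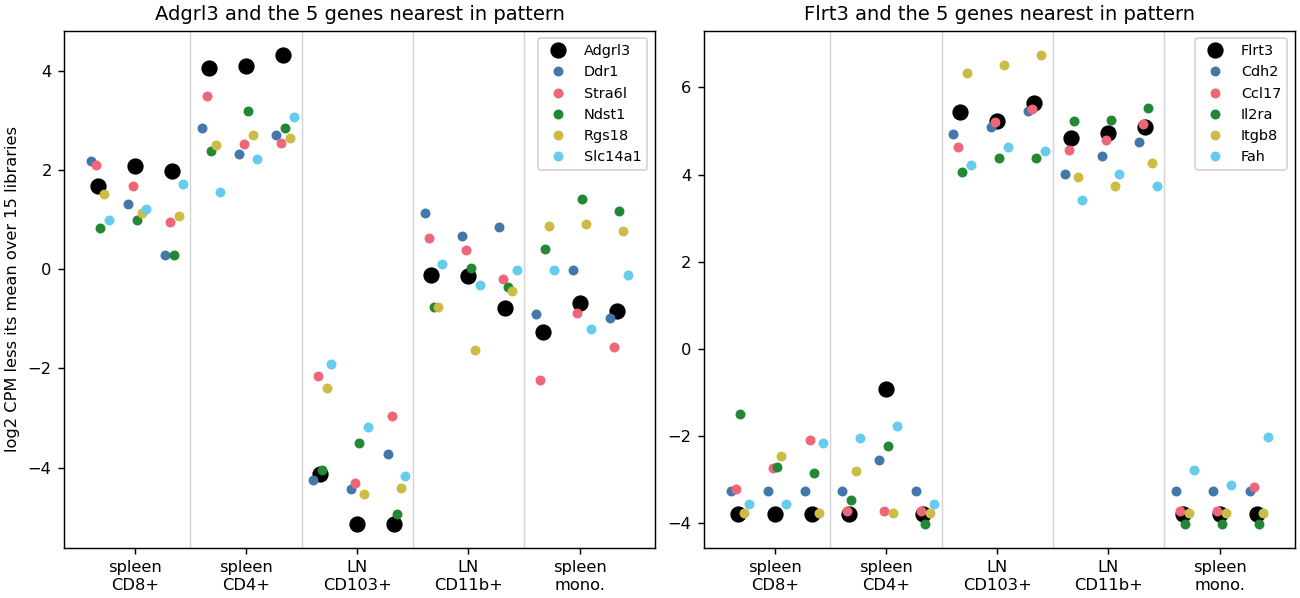
Log2 CPM less the gene's mean over the 15 libraries (y axis) for Adgrl3 (left) and Flrt3 (right), as large black points, and the 5 genes nearest in pattern, as small coloured points, by library within each subtype (x axis). The Adgrl3 group is highest in splenic CD4+ DCs, and the Flrt3 group is high in the 6 LN libraries alone.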

How the data were processed

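The authors aligned the Ion Torrent reads to mm10 using STAR (2.4.0j in the submitters' processing notes). For the genes of an Ensembl annotation they then ran featureCounts from Subread 1.5.2 on the unique alignments, unstranded and with a read given to each gene it overlapped. The deposited counts are not normalized. The deposited TPM values correct the authors' counts for exon length and sequencing depth, and recomputing them differed by at most 9.6e-10. Gene symbols matched 37607 of 38924 identifiers (96.6%). Libraries held 4531243 to 10233914 counts.

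The filter required over 1 CPM in 3 or more libraries and kept 14456 genes. One edgeR 4.0.16 quasi-likelihood model (R 4.3.3) with a mean per subtype was fitted after TMM scaling, and p-values were adjusted by Benjamini-Hochberg over all genes tested, with a threshold of 0.05. The SE is the log2 fold change divided by the root of the F statistic. The fit was tested on simulated data of independent libraries, with changes only in genes of higher mean counts. That test does not cover calls that rest on few counts. Libraries are pools of mice, and p-values measure the spread between pools. Intervals of ratios are exact 95% intervals for pooled Poisson counts, and 3 counts over a group stood in for 0.

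The members, gene lists and comparisons were chosen with earlier results of these data known. Genes named are the members, genes overlapping or enclosing them, in each comparison up to 4 partner genes of smallest adjusted p whose groups did not overlap, the 5 adhesion receptors of highest mean TPM, and the 5 genes nearest in pattern (prior count 2, mean of at least 10 CPM in 1 subtype). Other genes named by role were chosen after their values were seen. The values of 1 partner gene are not reported here, though counts over the list include it. Alternatives used RLE size factors, DESeq2 1.42.0, limma 3.58.1 on log2(TPM + 1), other filters, a replicate block, the compared subtypes alone, each library left out and, added after seeing the data, counts less those of the overlapping gene.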

Additional observations from a re-analysis of the deposited data

Results flagged for a closer look

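The lineage difference of 2 genes differed between the organs by edgeR's test of the interaction, taken as LN CD103+ minus CD11b+ DCs less splenic CD8+ minus CD4+ DCs. For Adgrl3 it was -3.87 on the log2 scale (SE 0.67, adjusted p = 8.17e-04). DC2 cells had the higher level in both organs, and the lowest level, in LN CD103+ DCs, rests on 2 counts in replicate 1, without which the interaction is not defined. With limma on log2(TPM + 1) it turned to 0.95 and was not called (adjusted p = 0.0518). For Arrb1 it was -2.11 (SE 0.33, adjusted p = 3.48e-04), where the DC1 cells were higher in the spleen and the DC2 cells in the LN, in 3 of 3 libraries each. Organ differs here together with cohort and gate, and their parts were not tested.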

How the results depend on the processing

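With the replicate block the members called numbered 1, 1, 0, 0, 1, 1 and 2 in the 7 comparisons, as without it. The numbers were not taken to pair the libraries, since 14 of 30 same-number pairs had deviations correlated above 0.1 (-0.04 to 0.38), though 13 of 15 libraries were closest to their own number. With no filter on low counts the members called became 2 in splenic CD8+ against CD4+ DCs (Flrt3 added), 1 in LN CD103+ against splenic CD8+ DCs (Adgrl2) and 1 in LN CD11b+ against splenic CD4+ DCs (Flrt2). With limma on log2(TPM + 1) they became 1 in LN CD103+ against splenic CD8+ DCs, 0 for the interaction, where Adgrl3 turned to 0.95, 0 in monocytes against splenic CD8+ DCs and 1 against splenic CD4+ DCs. In the fit of only the subtypes compared they became 1 in LN CD103+ against splenic CD8+ DCs and 1 in monocytes against splenic CD4+ DCs. With the overlapping gene's counts subtracted, they became 0 in monocytes against splenic CD8+ DCs, and the uncalled Adgrl1 interaction turned from 0.40 to -0.84. The partner genes called with limma were 2 in splenic CD8+ against CD4+ DCs, 1 in LN CD103+ against CD11b+ DCs and 4 in monocytes against splenic CD8+ DCs. In the fit of only the subtypes compared they were 3 in splenic CD8+ against CD4+ DCs and 3 in LN CD11b+ against splenic CD4+ DCs, and 3 in the latter when only log2 fold changes of 1 or more in size counted. The causes were not tested.

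Leaving out each library in turn gave 1 to 2 members called in splenic CD8+ against CD4+ DCs, 1 to 1 in LN CD103+ against CD11b+ DCs, 0 to 0 in LN CD103+ against splenic CD8+ DCs, 0 to 1 in LN CD11b+ against splenic CD4+ DCs, 0 to 1 for the interaction, 0 to 1 in monocytes against splenic CD8+ DCs and 1 to 2 against splenic CD4+ DCs. The 2 calls in the spleen came without splenic CD4+ replicate 1 or 3, the 1 in LN CD11b+ DCs without LN CD11b+ replicate 3 (Adgrl2, against a subtype then at 0 counts), and the 0 for the interaction without LN CD103+ replicate 1. The Flrt3 call in monocytes against splenic CD4+ DCs was lost without splenic CD4+ replicate 2 or any 1 monocyte library. Partner genes ranged from 3 to 7, 0 to 3, 6 to 9, 3 to 7, 4 to 8 and 6 to 10 in the 6 comparisons, in the order given in the report. The LN count was 0 without LN CD103+ replicate 2 or 3, 1 without LN CD103+ replicate 1 and 1 without LN CD11b+ replicate 1. In the spleen it was 3 without splenic CD8+ replicate 1 or 3 or splenic CD4+ replicate 2, and 4 without splenic CD8+ replicate 2. It was 3 in LN CD11b+ against splenic CD4+ DCs without LN CD11b+ replicate 2, and 4 in monocytes against splenic CD8+ DCs without splenic CD8+ replicate 1. Uncalled differences changed sign for Adgrl1 in LN CD103+ against splenic CD8+ DCs (-0.86 to 0.54) and the interaction (-0.20 to 1.20), and for Adgrl2 in the interaction (-1.33 to 4.13) and monocytes against splenic CD8+ DCs (-0.60 to 0.05). The 4.13 is fitted with LN CD11b+ DCs at 0 counts and is not defined as a ratio. Adgrl3 stayed called, between -2.38 and -2.14 in the spleen and -8.80 and -5.50 in the LN, where -8.80 is fitted with LN CD103+ DCs at 0 counts, without their replicate 1, and is no bound.

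The levels of Adgrl1 and Adgrl2 rest on at most 55 counts in a library. The first run of the monocyte libraries alone gave Adgrl1 0.223 CPM and the second 1.03 CPM, beside 0.641 CPM in both together. The Adgrl3 ratio of splenic CD4+ to CD8+ DCs was 4.77 in CPM and 4.98 in TPM.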
